A study of Mus musculus with 9 samples.

Results

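The genes examined belong to pigment cells and the retinal pigment epithelium: Tyr, Tyrp1, Dct, Pmel, Mlana, Mitf, Ttr, Best1, Slc45a2 and Oca2. They were taken by gene symbol from the 55487 genes of the table, in which all 10 were found, and 9 of the 10 passed the filter on low values that left 21330 genes tested; Mlana did not. The levels come from bulk RNA-seq of whole mouse retina on postnatal day 21 (P21), in 9 libraries, each made from the pooled retinas of 2 animals. All animals were labelled as C57 BL/6J, a pigmented strain.

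The 3 genotypes had 3 libraries each. Cre- animals were labelled as wild type and carried no Cre transgene. tHet animals carried 1 floxed and 1 wild-type allele of each of Tet1, Tet2 and Tet3 together with a Cre-GFP transgene. Tet tcKO animals carried the same transgene with both alleles of Tet1, Tet2 and Tet3 floxed. The TET enzymes oxidize methylated cytosine, the first step of active DNA demethylation. The promoter of the transgene is active in progenitors of the neural retina and not in the pigment epithelium, and the transgene is known to be mosaic. Both Cre+ genotypes came from in-crossed animals that carry 2 copies of it. Cre- animals came from separate Cre- breeders, so genotype and breeding line cannot be told apart where Cre- is compared with the others. Summed over the whole gene, the levels did not show the deletion of Tet1 (51 to 74.9 CPM in Tet tcKO and 51.7 to 57.6 CPM in Cre-) or of Tet2 (152 to 221 and 113 to 188 CPM), while Tet3 was at 99.2 to 152 CPM in Tet tcKO and 213 to 268 CPM in Cre-; reads over the floxed exons were not analysed here.

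Melanin is made in melanosomes, which in the eye lie in the retinal pigment epithelium, in the pigmented layers of the iris and ciliary body, and in melanocytes of the choroid. Tyrosinase (Tyr) starts the pathway, dopachrome tautomerase (Dct) and Tyrp1 act on later intermediates, Pmel forms the fibrils on which melanin is laid down, and Slc45a2 and Oca2 are melanosomal transporters. MITF is a transcription factor that activates many of these genes. Ttr (transthyretin, a carrier of thyroid hormone and of retinol-binding protein) and Best1 (bestrophin 1, a chloride channel of the basolateral membrane) are made by the pigment epithelium, which also holds the visual-cycle proteins RPE65, RGR and LRAT. The neural retina makes no melanin.

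MITF binds the M-box, an E-box variant with the core CATGTG, in promoters of the tyrosinase family. The promoters of the 3 family members are shown because their transcripts did not keep a fixed ratio in these libraries. Each runs from 250 bases before the gene start to 50 after it, from RefSeq on GRCm38.p6, written 5' to 3' on the strand of the gene, and capitals mark the M-box core on either strand. The regions are chr7:87493463-87493762 (minus strand) for Tyr, chr4:80833963-80834262 (plus strand) for Tyrp1 and chr14:118052197-118052496 (minus strand) for Dct.
Tyr: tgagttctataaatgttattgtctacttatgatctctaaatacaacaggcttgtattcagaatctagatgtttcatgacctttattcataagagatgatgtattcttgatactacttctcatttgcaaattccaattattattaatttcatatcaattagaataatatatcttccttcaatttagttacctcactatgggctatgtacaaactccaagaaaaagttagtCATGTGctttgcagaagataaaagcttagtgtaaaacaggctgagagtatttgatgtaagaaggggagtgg
Tyrp1: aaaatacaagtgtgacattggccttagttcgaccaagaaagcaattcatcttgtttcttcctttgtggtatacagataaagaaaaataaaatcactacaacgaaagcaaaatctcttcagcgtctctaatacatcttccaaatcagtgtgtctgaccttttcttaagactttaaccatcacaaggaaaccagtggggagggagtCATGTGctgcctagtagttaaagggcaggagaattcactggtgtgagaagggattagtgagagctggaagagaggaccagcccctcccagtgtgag
Dct: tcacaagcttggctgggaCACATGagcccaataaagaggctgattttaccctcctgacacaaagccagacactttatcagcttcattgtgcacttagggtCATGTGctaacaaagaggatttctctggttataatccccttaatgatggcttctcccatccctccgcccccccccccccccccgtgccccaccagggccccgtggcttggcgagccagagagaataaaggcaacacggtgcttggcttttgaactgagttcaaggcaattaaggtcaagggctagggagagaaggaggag
The core starts at position -21 in Tyr, -46 in Tyrp1 and -150 in Dct, counted from the RefSeq start of each window. Dct holds it once more on the opposite strand at -232. For Tyrp1 the RefSeq start lies downstream of the GENCODE gene start at 80834123, so the core lies within the gene as GENCODE places it. The 3 promoters share the 10 letters GTCATGTGCT around it, a stretch noticed after the sequences were read, which 61 of the 32851 promoters in the table hold on either strand (0.186%). The core CATGTG, searched on both strands, was present in 14.2% of all promoters. Among the members, 6 of 10 had a promoter in the table, and beside the 3 shown only Oca2 held the core, while Best1 and the 3 promoters of Mitf did not. The canonical E-box CACGTG, in 7.15% of all promoters, was in none of those of the members. A match to these letters is a description of the sequence only.

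Values are CPM, the reads of a gene relative to all reads on genes of the same library, and the libraries held 9627927 to 21108256 such reads. A single ribosomal RNA gene, CT010467.1, took 28.7% of the reads of Tet tcKO replicate 3, 3.72% in tHet replicate 3 and between 0.0409% and 0.226% elsewhere, which lowers the CPM of every other gene in that Tet tcKO library. The retinal transcription factor Otx2 was at 102 to 144 CPM across the libraries. The rod genes Gnat1, Pde6b, Nrl and Nr2e3 were called lower by limma in Tet tcKO versus Cre- and versus tHet.

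Per kilobase of exon, Ttr was the most abundant member at a mean of 36.8 CPM per kb over the 9 libraries, followed by Dct at 5.34. Mitf (1.94), Tyrp1 (1.53), Pmel (1.19) and Tyr (0.945) followed in mean CPM per kb. Best1 (0.629), Oca2 (0.369), Mlana (0.247) and Slc45a2 (0.2) were the lowest. The low end rests on few reads, with 80 reads for Slc45a2 and 38 for Mlana in all 9 libraries together. Adjacent genes below Dct differed by less than their range among libraries.

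Tyr (ENSMUSG00000004651.6, chromosome 7, 87424771 to 87493512, GRCm38) was at 6.77, 1.46 and 6.28 CPM in Cre- replicates 1 to 3. It was at 11.4, 8.21 and 17.5 CPM in tHet and at 3.92, 1.78 and 3.07 CPM in Tet tcKO. The tHet libraries were above all others, while Cre- and Tet tcKO overlapped. Dct (ENSMUSG00000022129.4, chromosome 14, 118012790 to 118052244) was at 21.7, 6.55 and 29.2 CPM in Cre-, at 52, 36.9 and 87.2 CPM in tHet, and at 16.6, 17.7 and 15.4 CPM in Tet tcKO. Its order was that of Tyr, with tHet apart, and the Tet tcKO libraries lay within a range of 1.15-fold against 4.46-fold in Cre-.

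Tyrp1 (ENSMUSG00000005994.14, chromosome 4, 80834123 to 80851719) was at 3.18, 0.954 and 3.11 CPM in Cre-, at 5.47, 3.43 and 7.72 CPM in tHet, and at 6.41, 6.19 and 2.53 CPM in Tet tcKO. Unlike Tyr and Dct, 2 of the 3 Tet tcKO libraries lay within the range of tHet. Pmel (ENSMUSG00000025359.10, chromosome 10, 128704195 to 128720238) was at 1.82, 0.573 and 3.98 CPM in Cre-, at 3.89, 2.49 and 5.59 CPM in tHet, and at 2.67, 1.91 and 1.57 CPM in Tet tcKO, and its Cre- values overlapped those of both other genotypes. Its exons overlap those of Cdk2 by 34 bases and of Dgka by 105 bases on the opposite strand, so part of its reads is uncertain if strand was not used in counting. Oca2 (chromosome 7, 56239760 to 56536518) was at 2, 0.318 and 1.62 CPM in Cre-, at 2.02, 1.77 and 2.51 CPM in tHet, and at 1.66, 0.593 and 0.662 CPM in Tet tcKO, so that tHet lay above Tet tcKO in every library but overlapped Cre-.

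Ttr (ENSMUSG00000061808.4, chromosome 18, 20665280 to 20674321) was at 86.8, 17.1 and 40 CPM in Cre-, at 78.3, 60.3 and 68.2 CPM in tHet, and at 16.9, 13.6 and 11.4 CPM in Tet tcKO. All Tet tcKO libraries were below all others, although Cre- replicate 2 was barely above the highest of them. Mitf (ENSMUSG00000035158.15, chromosome 6, 97807052 to 98021349) was at 13.9, 11.2 and 9.59 CPM in Cre-, at 10.4, 10.8 and 11.6 CPM in tHet, and at 14.3, 17.3 and 9.45 CPM in Tet tcKO, and the 3 genotypes overlapped. It spanned 1.83-fold over the 9 libraries, against 7.62-fold for Ttr, 12-fold for Tyr and 13.3-fold for Dct.

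Best1 (chromosome 19, 9985174 to 10001633) was at 2, 1.4 and 1.22 CPM in Cre-, at 0.648, 2.18 and 1.09 CPM in tHet, and at 2.2, 2.37 and 1.51 CPM in Tet tcKO. Slc45a2 (chromosome 15, 11000721 to 11029233) was at 0.235, 0.636 and 0.203 CPM in Cre-, at 0.648, 1.14 and 0.521 CPM in tHet, and at 0.831, 0.659 and 0.482 CPM in Tet tcKO, from 3 to 14 reads in a library. Mlana (chromosome 19, 29697824 to 29708634), a melanosomal protein known as a melanocyte antigen, had 5, 5 and 11 reads in Cre-. It had 2, 1 and 8 reads in tHet and 1, 2 and 3 reads in Tet tcKO. The genotypes overlapped for Best1 and Slc45a2. The Tet tcKO libraries of Mlana, at 0.0594 to 0.181 CPM, lay below the Cre- libraries, at 0.294 to 0.743 CPM, and tHet overlapped both, but the gene did not pass the filter and was not tested.

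**Figure D1:**
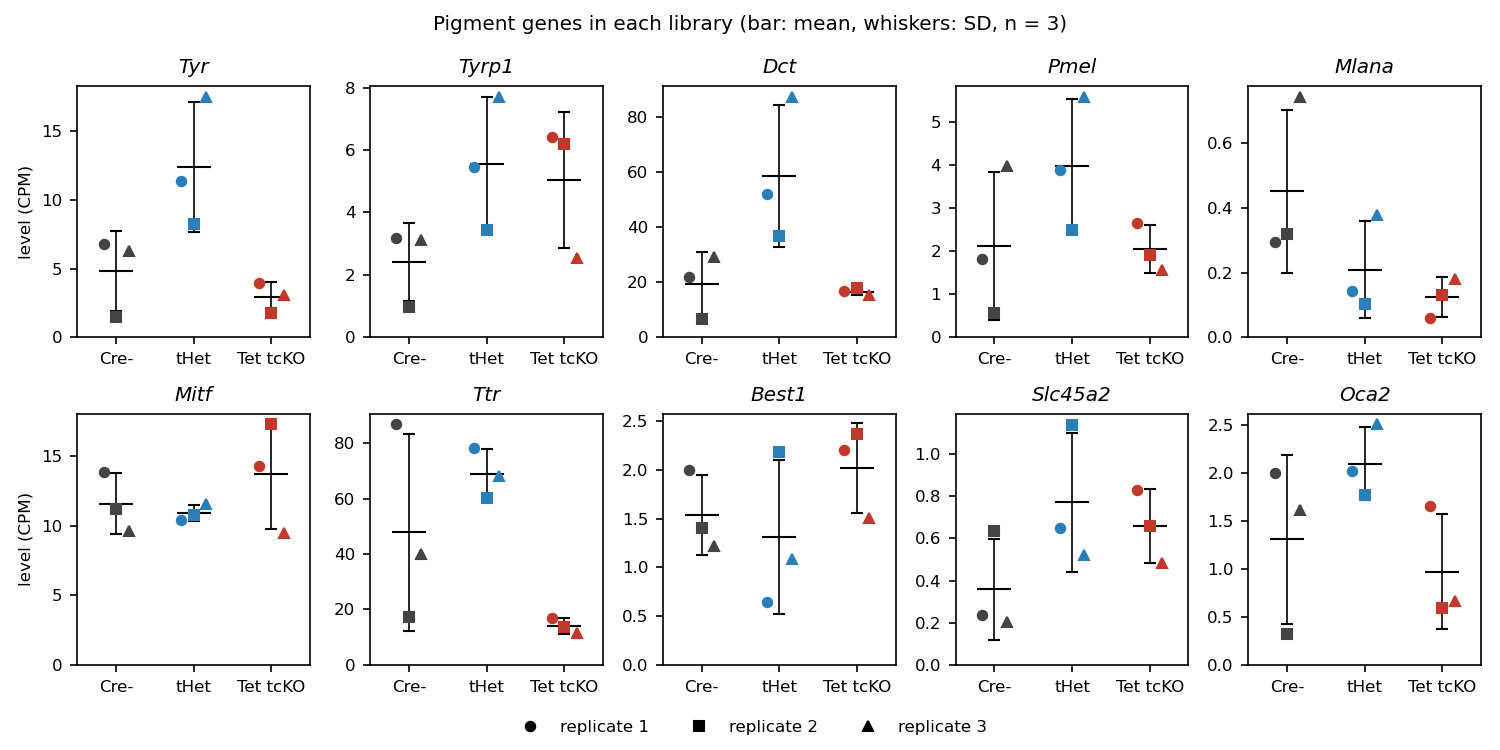
The level in CPM of each of the 10 genes (1 panel each, linear axes from 0) is plotted by genotype, with a point per library whose shape gives its replicate number, a bar at the mean and whiskers for the SD (n = 3). Tyr and Dct were highest in the 3 tHet libraries, Ttr was lowest in the 3 Tet tcKO libraries, and Cre- replicate 2 was the lowest of all libraries for 5 of the 9 tested genes.

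The libraries differed for these genes within a genotype more than most genes did. The SD of log2(CPM + 0.5) within genotypes was 0.74 for Tyr, 0.73 for Dct, 0.695 for Ttr and 0.69 for Pmel, at or above the 95th percentile of the 21330 tested genes for all 4 (96.7, 96.4, 95.2 and 95). The median SD of the 2000 genes nearest in level was 0.369 for Tyr, 0.283 for Dct and 0.277 for Ttr. Tyrp1 (percentile 93.9) and Oca2 (percentile 90.5) also varied widely, whereas Mitf (percentile 34.4) and Slc45a2 (percentile 46.5) did not. Cre- replicate 2 was the lowest library for 5 of the 9 tested members and tHet replicate 3 the highest for 5. Genotype accounted for 73.3% of the variance of Ttr, 65% of that of Dct and 64.1% of that of Tyr, against a median of 26.4% over all tested genes, and for 19% of that of Mitf.

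Loss of all 3 TET enzymes was first compared with Cre-. A gene was called when its log2 fold change (log2FC) reached 1 in size with a Benjamini-Hochberg adjusted p below 0.01. None of the 9 tested members was called by limma in Tet tcKO versus Cre-, where 3.60% of all tested genes were called and 1.57% were called lower. At an unadjusted p under 0.05 there were 2, without a share of all tested genes to set beside them, and edgeR and DESeq2 called 0. The largest difference was that of Ttr, at 14 ± 2.76 CPM in Tet tcKO and 47.9 ± 35.5 CPM in Cre- (SD, n = 3 each), for which limma gave a log2FC of -1.47 with a standard error of 0.37 and an adjusted p = 0.0167. It was the only tested member whose libraries did not overlap, as for 19.6% of all tested genes. Without Cre- replicate 2 the log2FC of Ttr was -2.06 and it was called (limma adjusted p = 1.25e-05). It was also called without tHet replicate 3, which enters only the shared estimate of spread (limma adjusted p = 0.00225). Ttr was not called when any other single library was left out. Without Cre- replicate 1 its log2FC was -0.90 (limma adjusted p = 0.078), and without Tet tcKO replicate 3 it was -1.34 (limma adjusted p = 0.151).

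The melanin pathway genes did not show a common direction in Tet tcKO versus Cre-. The log2FC of Dct was 0.03 (95% confidence interval -0.78 to 0.83) and that of Tyr -0.48 (-1.37 to 0.42). Tyrp1 was at 5.05 ± 2.18 CPM in Tet tcKO and 2.41 ± 1.26 CPM in Cre- (SD, n = 3 each), a log2FC of 0.95 (0.09 to 1.82, limma adjusted p = 0.235). For Mitf limma gave 0.21 with a standard error of 0.27 and an adjusted p = 0.859. Of the 9 tested members 6 had a positive and 3 a negative log2FC, with a median of 0.17 against 0.00124 over all tested genes. Leaving out CT010467.1 moved the latter median to 0.143. Dct and Pmel turned negative in edgeR, in DESeq2 and without Cre- replicate 2, so neither has a settled direction in this comparison.

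In Tet tcKO versus tHet, 3 of the 9 tested members were called, all lower, where 3.00% of all tested genes were called and 1.61% called lower. Ttr was at 14 ± 2.76 CPM in Tet tcKO and 69 ± 9.02 CPM in tHet (SD, n = 3 each), and fell by 2.27 on the log2 scale (standard error 0.37, limma adjusted p = 0.000496). Tyr, at 2.92 ± 1.08 and 12.4 ± 4.73 CPM, fell by 1.90 (standard error 0.43, limma adjusted p = 0.00893). Dct, at 16.5 ± 1.12 and 58.7 ± 25.8 CPM, fell by 1.71 (standard error 0.39, limma adjusted p = 0.00886). The libraries of these 3 genes and of Oca2 did not overlap, with Tet tcKO lower in each, while 17.0% of all tested genes did not overlap in either direction.

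The calls of Tyr and Dct lie close to the threshold, and that of Ttr was kept in more of the alternatives. TMM scaling in limma and the edgeR test called 0 of the 9, with adjusted p of 0.0102 and 0.012 for Ttr, and DESeq2 called Ttr and Tyr. Ttr alone was called without CT010467.1, and none was called without Tet tcKO replicate 3, the library in which that gene took most reads (Ttr then had a log2FC of -2.14, limma adjusted p = 0.0313). Without tHet replicate 1, tHet replicate 3, Tet tcKO replicate 1 or Tet tcKO replicate 2, Ttr alone was called. The log2FC of all 3 genes was negative under every scaling, filter, tool and omission of a library that was run, and positive in the fits with a pigment epithelium covariate.

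The other members were not called in Tet tcKO versus tHet. Oca2 had a log2FC of -0.88 (95% confidence interval -1.73 to -0.03, limma adjusted p = 0.26) and Pmel of -0.78 (-1.68 to 0.12). Tyrp1, in contrast to its family members Tyr and Dct, had a log2FC of -0.15 (-1.02 to 0.71). Mitf had a log2FC of 0.27 (standard error 0.27) and Best1 of 0.56 (standard error 0.36). The median over the 9 was -0.78, against -0.0563 over all tested genes.

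Within the Cre+ line the heterozygotes served as a second control. No tested member was called by limma in tHet versus Cre-, where 0.0422% of all tested genes were called, nor by edgeR or DESeq2. An unadjusted p under 0.05 was reached by 5, a looser threshold for which the share of all tested genes is not given. The libraries of Tyr, Tyrp1 and Dct did not overlap, all with tHet higher, as for 11.1% of all tested genes in either direction. Dct had means of 58.7 ± 25.8 CPM (tHet) and 19.2 ± 11.6 CPM (Cre-, SD, n = 3 each), a difference that did not pass the test (log2FC 1.74, 95% confidence interval 0.93 to 2.54, limma adjusted p = 0.123). Without Cre- replicate 2 it was 1.11. The log2FC was 1.43 for Tyr, 1.11 for Tyrp1, 0.95 for Pmel and 0.80 for Ttr, none of them called, and the median was 0.80 against 0.0568 over all tested genes. All 3 comparisons share libraries, so their values for a gene are not independent of each other.

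**Figure D2:**
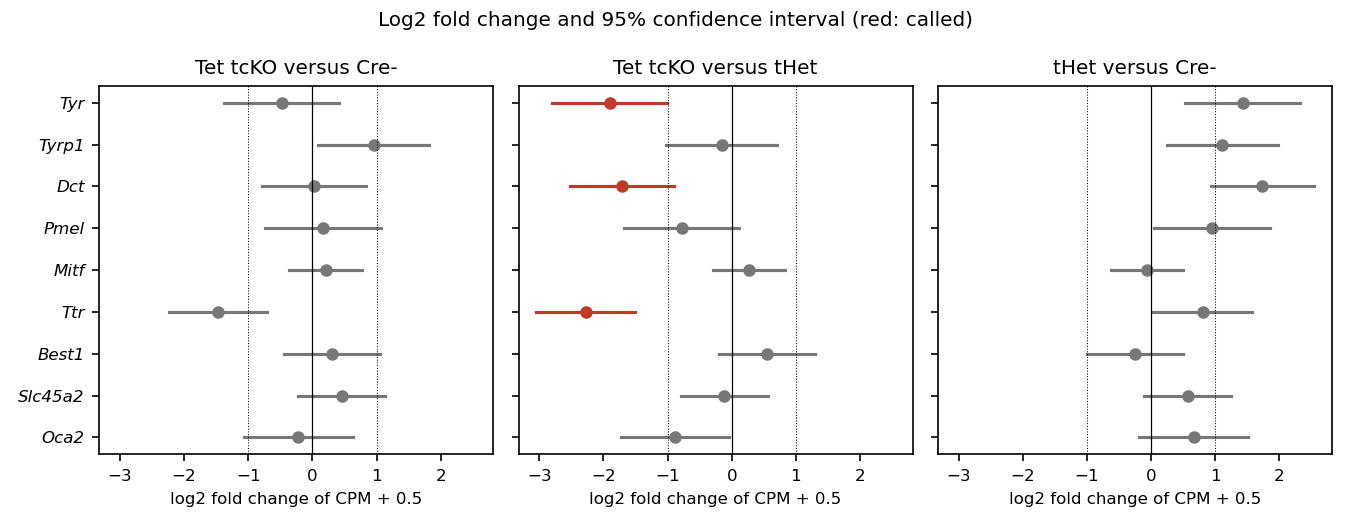
The log2FC of log2(CPM + 0.5) for the 9 tested genes in the 3 comparisons, with lines for the 95% confidence interval of the limma fit, red for genes called and dotted lines at the fold-change threshold. Only Ttr, Tyr and Dct in Tet tcKO versus tHet were called, and Tyrp1 and Mitf lay near 0 there.

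Some of the genes that define the pigment epithelium were lower in Tet tcKO too. Of 14 such genes, all tested, 4 were called lower in Tet tcKO versus Cre-, where 1.57% of all tested genes were called lower. In Tet tcKO versus tHet 5 were called lower, against 1.61% of all tested genes. None was called in tHet versus Cre- (6 at an unadjusted p under 0.05, 0 in edgeR and DESeq2). For the first 2 comparisons edgeR called 3 and 4 of them, and DESeq2 4 and 5. Rpe65, the isomerase of the visual cycle, was at 28.6, 7.83 and 15.9 CPM in Cre-, at 23.8, 15.7 and 19 CPM in tHet, and at 3.8, 4.74 and 3.13 CPM in Tet tcKO. It fell by 1.87 on the log2 scale in Tet tcKO versus Cre- and by 2.19 versus tHet (limma adjusted p = 0.00171 and 0.000445). The opsin Rgr fell by 1.62 and 2.30 (limma adjusted p = 0.00259 and 0.000103), and the retinol acyltransferase Lrat by 1.60 and 2.69 (limma adjusted p = 0.00589 and 5.09e-05). Krt18 fell by 2.20 and 1.54, and the retinol dehydrogenase Rdh5 was called only versus tHet, where it fell by 1.45. The calls of Rpe65, Rgr and Lrat versus Cre- were lost without Tet tcKO replicate 1 and without Tet tcKO replicate 3, the latter with limma adjusted p = 0.0358, 0.0521 and 0.0732, and with TMM scaling. Of the 14 genes 10 had a negative and 4 a positive log2FC versus Cre-. The positive ones were Ermn at 0.91, Cldn19 at 0.77, Stra6 at 0.71 and Slc16a8 at 0.28, none called, and all Ermn libraries of Tet tcKO were above those of Cre-. Among the negative ones, Rrh had a log2FC of -0.27 and -0.38, Serpinf1 of -0.11 and -0.18, and Kcnj13 of -0.45 and -0.40 in the same 2 comparisons, none called. The summed level of the list was 132 to 243 CPM in Cre-, 192 to 238 CPM in tHet and 77.7 to 98.6 CPM in Tet tcKO. In whole-tissue RNA, fewer pigment epithelium cells in the dissected sample and less RNA per such cell cannot be told apart.

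Of that list, Ttr followed Rgr, Rpe65 and Lrat library by library. After the genotype means were removed, its r was 0.979 with Rgr, 0.952 with Rpe65 and 0.958 with Lrat, but 0.305 with Rdh5. The ratio of Ttr to Rpe65 ranged from 2.18 to 4.44, and all tHet libraries were above all Cre- libraries (exact permutation p = 0.1). The ratio of Ttr to Rgr stayed between 0.944 and 1.41 in all 9 libraries, while Ttr itself spanned 7.62-fold. Its mean was 1.29 ± 0.168 in Tet tcKO, 1.24 ± 0.0758 in tHet and 1.16 ± 0.211 in Cre- (SD, n = 3 each). In Tet tcKO versus tHet the log2 ratio differed by 0.04 (exact permutation test, two-sided p = 0.8). Cre- replicate 1 held 86.8 CPM of Ttr and 63.6 CPM of Rgr, and Cre- replicate 2 held 17.1 and 18.1 CPM. The log2 levels of Ttr and Rgr correlated with Pearson's r = 0.99 and a Spearman correlation of 0.98 over the 9 libraries, with r = 1.00 without the 2 libraries farthest from the median of Rgr and with r = 0.98 after the genotype means were removed. These correlations are descriptions over libraries that share depth and dissection within each sample.

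Tyr, Dct and Pmel followed Gpnmb, a melanosomal glycoprotein related to Pmel, more closely than they followed Ttr. After genotype means were removed, r with Gpnmb and with Ttr was 0.971 and 0.773 for Tyr, 0.956 and 0.679 for Dct, and 0.911 and 0.559 for Pmel. It was 0.871 and 0.858 for Oca2, nearly equal, and -0.824 and -0.52 for Slc45a2, which followed neither. Not every melanosomal gene behaved like Gpnmb, as Tspan10 had r of -0.652 with Tyr, -0.344 with Dct and -0.443 with Pmel. Optc, a gene of the ciliary epithelium, had r of 0.618, 0.856 and 0.687 with these 3, the last 2 above those of Ttr. For Tyrp1, r was 0.796 with Gpnmb, 0.818 with Optc and 0.72 with Ttr. Gpnmb was at 4.36, 1.08 and 4.79 CPM in Cre-, at 7.85, 5.09 and 13.4 CPM in tHet, and at 3.56, 2.31 and 2.83 CPM in Tet tcKO. The ratio of Gpnmb to Dct lay between 0.131 and 0.215 over all libraries. Its mean was 0.177 ± 0.0208 for Cre-, 0.148 ± 0.00841 for tHet and 0.176 ± 0.0427 for Tet tcKO (SD, n = 3 each), and all tHet libraries were below all Cre- libraries (exact permutation p = 0.1). The ratio of Gpnmb to Tyr was less even, at 0.715 ± 0.0634 for Cre-, 0.69 ± 0.0724 for tHet and 1.04 ± 0.22 for Tet tcKO. All Tet tcKO libraries were above all Cre- and all tHet libraries (exact permutation p = 0.1 each). For Pmel to Dct, all tHet libraries were below those of both other genotypes (exact permutation p = 0.1 each). Dct and Gpnmb correlated with r = 0.98 and a Spearman correlation of 0.95 over the 9 libraries, and r = 0.92 without the 2 farthest, while Dct and Ttr had r = 0.73 and a Spearman correlation of 0.70. After genotype means were removed and Cre- replicate 2 left out, r was 0.91 for Dct with Gpnmb and 0.30 for Dct with Ttr.

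Dct was not in a fixed ratio to Rpe65. The ratio of Dct to Rpe65 was 0.761, 0.837 and 1.83 for Cre-, 2.18, 2.35 and 4.58 for tHet, and 4.36, 3.72 and 4.92 for Tet tcKO. All tHet and all Tet tcKO libraries lay above all Cre- libraries (log2 differences of 1.44 and 2.03, exact permutation p = 0.1 each, the smallest that 3 against 3 libraries allow), and tHet and Tet tcKO overlapped. The ratio of Tyrp1 to Tyr was 0.47, 0.652 and 0.495 in Cre- and 0.478, 0.418 and 0.441 in tHet, but 1.64, 3.48 and 0.824 in Tet tcKO. All 3 Tet tcKO libraries were above the other 6 (log2 differences of 1.65 versus Cre- and 1.91 versus tHet, exact permutation p = 0.1 each). In Tet tcKO replicate 2 the ratio rests on 94 reads of Tyrp1 and 27 of Tyr. The 11 ratios, chosen after the values were seen, gave 33 comparisons, of which none fell below a Benjamini-Hochberg adjusted p of 0.206.

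**Figure D3:**
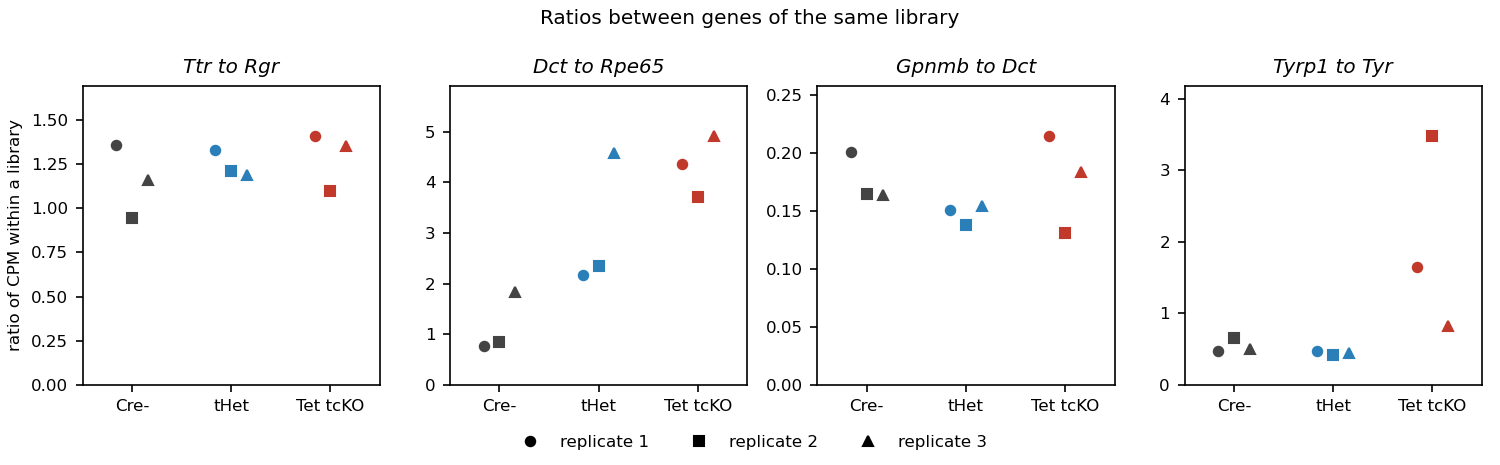
The ratio of CPM between 2 genes of the same library (linear axes from 0) for 4 pairs, by genotype, with a point per library. Ttr to Rgr overlapped between all genotypes, Gpnmb to Dct was slightly lower in tHet than in Cre- and overlapped otherwise, Dct to Rpe65 was lower in the 3 Cre- libraries than in the other 6, and Tyrp1 to Tyr was higher in the 3 Tet tcKO libraries than in the other 6.

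With the mean centred log2 level of the 14 pigment epithelium genes as a covariate, Ttr had a log2FC of 0.10 in Tet tcKO versus tHet (limma adjusted p = 0.963) and -0.13 versus Cre- (limma adjusted p = 0.949). Tyr and Dct had 0.22 and 0.71 versus tHet in the same fit, and neither was called. Tyrp1 had 2.33 versus Cre- and was the only member called (limma adjusted p = 0.0067), but it was not called with Rpe65, Rgr and Lrat as the covariate (2.53, limma adjusted p = 0.0286). The covariate of the 14 genes was -0.715 to -0.373 in Tet tcKO, 0.264 to 0.608 in tHet and -0.355 to 0.304 in Cre-. Its value in Cre- replicate 2 was just above the Tet tcKO libraries. The covariate of Rpe65, Rgr and Lrat was -1.72 to -1.12 in Tet tcKO, 0.826 to 1.23 in tHet and -0.558 to 1.22 in Cre-. Neither overlapped between Tet tcKO and either control, so the level of these genes and the genotype cannot be told apart in either comparison.

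**Figure D4:**
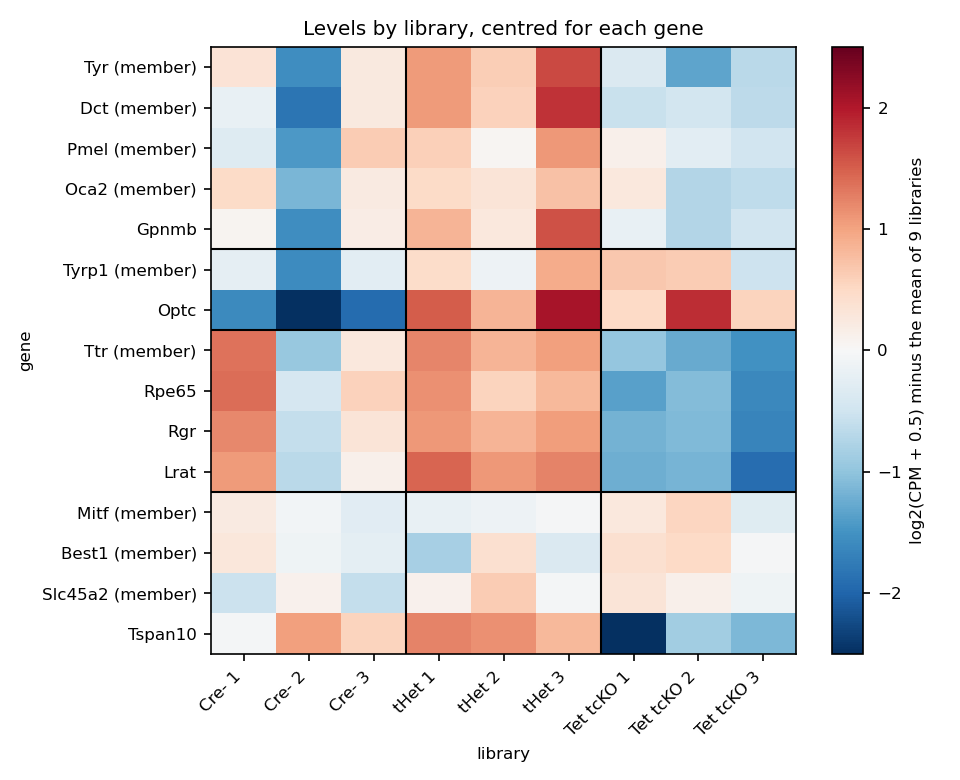
The log2(CPM + 0.5) of 15 genes, minus the mean of the 9 libraries for each gene, as colors from blue (below) to red (above), with 1 column per library and lines between genotypes and gene groups. Ttr shares its pattern with Rpe65, Rgr and Lrat, which are blue in all 3 Tet tcKO libraries, and Tyr, Dct, Pmel and Oca2 share theirs with Gpnmb, which is bluest in Cre- replicate 2, while Mitf, Best1 and Slc45a2 vary less.

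Other genes of the melanosome moved in different ways. Of 8 further melanosomal genes 7 were tested, and Gpr143, a pigment cell receptor, had at most 5 reads in any library. Tspan10, a tetraspanin of pigment cells, was at 11.4, 24.5 and 17.7 CPM in Cre-, at 28.6, 26.8 and 21.2 CPM in tHet, and at 1.31, 6.26 and 5.18 CPM in Tet tcKO. It fell by 2.09 on the log2 scale versus Cre- and by 2.65 versus tHet (limma adjusted p = 0.00147 and 0.000169), but it was not low in Cre- replicate 2, unlike Tyr and Dct. Slc7a11, the cystine transporter, rose in Tet tcKO versus Cre- by 1.69 (limma adjusted p = 0.00185). Atp7a, a copper transporter, was at 29.2 CPM in Tet tcKO and 30 CPM in Cre- in mean, with a log2FC of -0.05. None was called in tHet versus Cre- (2 at an unadjusted p under 0.05, 0 in edgeR and DESeq2). Of 17 genes of melanosome biogenesis and transport, which many cells use, all were tested and none was called in any comparison (2, 1 and 1 at an unadjusted p under 0.05, and 0 in edgeR and DESeq2). Their summed level was 1103 to 1146 CPM in Cre-, 1060 to 1168 CPM in tHet and 806 to 1295 CPM in Tet tcKO, most of it Myo5a, Ap3d1 and Lyst, which neurons express.

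Among defining genes of neural crest melanocytes, Pax3 had at most 3 reads in any library, and Sox10 was at 0.297 to 1.66 CPM. Mc1r, the melanocortin receptor, was at 2.18, 1.65 and 3.51 CPM in Cre-, at 4.61, 3.64 and 4.31 CPM in tHet, and at 2.26, 0.857 and 1.08 CPM in Tet tcKO. Its tHet libraries were above all others, and its difference between Tet tcKO and tHet (log2FC -1.37, limma adjusted p = 0.0232) was not called. Of the 6 genes of that list 5 were tested, and limma called none in the 3 comparisons (1, 3 and 0 at an unadjusted p under 0.05, 0 in edgeR, and 1, 1 and 0 in DESeq2). Its sum, mostly Ednrb and Kit, was 17.3 to 18.2 CPM in Cre-, 17.2 to 24 CPM in tHet and 19.6 to 34.4 CPM in Tet tcKO. Of the genes of the MITF family and its regulators, 6 of 7 were tested and none was called (2, 1 and 0 at an unadjusted p under 0.05, 0 in edgeR and DESeq2). Tfec, the family member enriched in the pigment epithelium, had 0 reads in all Cre- and Tet tcKO libraries and at most 3 in tHet, where a count of 0 allows up to 0.2025 CPM in the shallowest Cre- library.

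Markers of other tissue that adjoins the retina differed between genotypes too, and their part in the results for the members was not tested. Of 8 genes of the ciliary body and iris, Optc, Col9a1, Wfdc1 and Zic1 were called higher in Tet tcKO versus Cre-, and Aqp1 was called lower there and versus tHet, the latter by limma but not by edgeR or DESeq2. Optc, the proteoglycan opticin made by the nonpigmented ciliary epithelium, was at 7.42, 1.21 and 5.74 CPM in Cre-, at 67.1, 42.1 and 98.9 CPM in tHet, and at 32.9, 84.9 and 34.5 CPM in Tet tcKO. It rose in tHet versus Cre- by 3.91 (limma adjusted p = 0.000311), as did Col9a1 by 1.46 (limma adjusted p = 0.00509), while edgeR called 0 of the 8 in that comparison and DESeq2 called 4. The list summed to 115 to 147 CPM in Cre-, 248 to 316 CPM in tHet and 297 to 382 CPM in Tet tcKO.

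Of 7 stromal genes of the choroid and sclera 5 were tested, and only Col1a2 was called, higher in Tet tcKO versus Cre- (log2FC 2.49) and versus tHet (2.05). Dpt had at most 3 reads in any library, and the list summed to 8.06 to 11.6 CPM in Cre-, 8.62 to 14.1 CPM in tHet and 21.9 to 43.1 CPM in Tet tcKO. Most of the Tet tcKO sum was Col1a2, at 15.8 to 33.7 CPM there and 3.18 to 3.53 CPM in Cre-. Mean levels in Tet tcKO and Cre- were 1.76 and 2.42 CPM for Col1a1, and 2.15 and 1.85 CPM for Plvap. Of the 5 tested genes 4 had a positive and 1 a negative log2FC in Tet tcKO versus Cre-. The 8 lens genes were all tested and none was called (5, 0 and 1 at an unadjusted p under 0.05, 0 in edgeR and DESeq2), with sums of 20.4 to 67.6 CPM in Cre-, 10.3 to 39.7 CPM in tHet and 6.18 to 22.9 CPM in Tet tcKO. The 4 corneal genes summed to at most 1.35 CPM in any library and were not tested. The 3 tested muscle genes of 4 were not called (0 at an unadjusted p under 0.05, 0 in edgeR and DESeq2), with sums of 3.37 to 5.64 CPM over all libraries.

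The mean centred log2 level of the 9 tested members, weighting each equally, was 0.16, -0.95 and 0.0233 for Cre-, 0.445, 0.351 and 0.752 for tHet, and 0.0182, -0.252 and -0.548 for Tet tcKO. Over the 9 libraries the 10 genes outside the members whose pattern was most like it included Sema3c (r = 0.976), Thbs4, Cldn1, Col8a1, Cpxm2, D830013O20Rik, Gpnmb, Wfikkn2 and Krt8 (r = 0.945). After the genotype means were removed the 10 included Trf (r = 0.987), Krt8, Cdh3, Sema3c, Fam107a, Car12, Smox, Gm11613 and Col8a2 (r = 0.961). Sema3c and Krt8 were in both groups of 10. Trf, which encodes transferrin, was at 32.8 to 131 CPM in Cre-, 108 to 184 CPM in tHet and 21.3 to 40.1 CPM in Tet tcKO. These are the highest of 21330 correlations over few libraries, given without a test.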

How the data were processed

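RNA-seq levels of 9 P21 retina libraries (3 genotypes, 3 libraries each, grouped by their GEO labels) were taken from a single table. The authors deposited CPM, scaled by plain library total; per the labels and methods, reads were trimmed (Trim Galore 0.6.7), aligned to mm10 (STAR 2.7.0f) and counted per gene (HTSeq 0.11.2). Use of strand in counting and the annotation release are not given in the sources used here. Columns of the authors' own tests (fold changes, p-values, FDR) and group means were not used. All 9 value columns matched a sample.

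Each positive CPM was a whole multiple of 1 read (100% within 0.01 read), so reads on genes were recovered: 9627927 to 21108256 per library, where 1 read is 0.04737 to 0.1039 CPM. Floors and intervals from reads cover counting error only.

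The 21330 genes that reached 0.5 CPM in 3 or more libraries were fitted in limma 3.58.1 (R 4.3.3, lmFit and eBayes with trend) on log2(CPM + 0.5), with a mean per genotype over all 9 libraries and Benjamini-Hochberg adjustment over all genes tested. Calls needed a log2FC of 1 or more in size together with an adjusted p below 0.01. Counts at an unadjusted p under 0.05 are given without the share of all tested genes at that threshold. A fold change on this scale understates that of low genes. Reads were also tested with edgeR 4.0.16 (quasi-likelihood, TMM) and DESeq2 1.42.0. Tests were tested on simulated data first. Libraries of a genotype differed by far more than sampling noise (chi-square per degree of freedom 13.3 to 296). Nothing in the labels says whether the pools came from separate litters, so p-values measure the spread between these libraries.

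The members, the marker lists and the tests were chosen with earlier results of these data known. Named were all members, genes of a list called in any comparison and up to 3 of its most abundant genes, and 10 genes by likeness to the mean member profile under each measure, of which some are not reported here; Rrh, Serpinf1, Kcnj13, Ermn, Cldn19, Stra6, Slc16a8, Gpr143, Sox10, Pax3, Tfec, Dpt, Ednrb and Kit were named after their values were seen. Gene positions are from GENCODE M21 (GRCm38), in which 54435 of 55487 identifiers matched with their version; promoters are from RefSeq. Alternatives were other pseudocounts, filters, scalings and thresholds, the replicate block, a pigment epithelium covariate, fits of the 6 libraries compared and omission of each library. Omission of CT010467.1 and a covariate of Rpe65, Rgr and Lrat were added after seeing the data.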

Additional observations from a re-analysis of the deposited data

How the results depend on the processing

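The members called in Tet tcKO versus tHet were 3. They were 1 (Ttr) with a pseudocount of 0.1, with no filter on low values, with upper-quartile scaling and without CT010467.1, and 0 with TMM scaling in limma, in edgeR and under both covariates, and they ranged from 0 to 3 when each library was left out. In Tet tcKO versus Cre- the 0 became 1 with the replicate block, with only the 6 libraries compared and at an adjusted p under 0.05 (Ttr each time), and under the pigment epithelium covariate (Tyrp1), with a range of 0 to 1 over omitted libraries. In tHet versus Cre- the 0 became 1 (Dct, log2FC 1.74, limma adjusted p = 0.000289) with the replicate block. The labels do not say whether replicate numbers pair the libraries, and they were treated as unpaired. Of 9 pairs with the same number, 5 deviated together (r above 0.1, range -0.35 to 0.56). The mean r was 0.111 for these 9 pairs and -0.0515 for pairs with other numbers, which does not settle whether the libraries are paired. Over all genes, calls ranged from 142 to 1156 in Tet tcKO versus Cre- (768 as reported), from 10 to 1125 versus tHet (640) and from 0 to 40 in tHet versus Cre- (9), the lowest of the first 2 under the covariates. Calls split 434 higher and 334 lower in Tet tcKO versus Cre-, and 607 and 221 without CT010467.1; versus tHet they split 297 and 343, and 424 and 215 without it.

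Of 1398 values for single genes, 1217 kept their direction and side of the threshold, 138 fell short of it, 7 passed it and 36 changed sign. The cause was not tested. The direction could not change where only a threshold differed or the omitted library was of the genotype not compared. Members not called at first are counted among these values too. In Tet tcKO versus Cre-, Dct and Pmel were at -0.23 and -0.066 in edgeR and at -0.24 and -0.0801 in DESeq2. Under the pigment epithelium covariate Tyr was at 0.72, Slc45a2 at -0.0286 and Oca2 at 0.81, and under that of Rpe65, Rgr and Lrat they were at 1.04, -0.0554 and 1.19 and Ttr at 0.59. Versus tHet, the first covariate gave Tyr 0.22, Tyrp1 2.29, Dct 0.71, Pmel 1.31, Ttr 0.10 and Oca2 0.96, and the second 0.23, 2.08, 0.41, 0.81, 0.63 and 1.11. In tHet versus Cre-, they gave Ttr -0.23 and -0.0446, and the first gave Oca2 -0.14. Genes that make up a covariate were not refitted under it. Over omitted libraries the log2FC ranged from -0.72 to 0.0888 for Oca2, from -0.59 to 0.44 for Dct and from -0.36 to 0.67 for Pmel in Tet tcKO versus Cre-. It ranged from -0.26 to 0.085 for Slc45a2 and from -0.43 to 0.24 for Tyrp1 versus tHet, and from -0.18 to 0.0729 for Mitf and from -0.575 to 0.0368 for Best1 in tHet versus Cre-. Depth limits Slc45a2 and Mlana, with at most 14 and 11 reads in a library.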
